A study of Drosophila melanogaster with 7 samples.

Results

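Integrin adhesion genes and the tensin gene *by* were followed in *Drosophila* embryos that lack isoform K of the transcription factor Lola. The members were chosen by gene name: every array feature whose single gene was *by*, *mys*, *if*, *mew*, *rhea*, *Ilk*, *stck*, *parvin*, *Vinc* or *Fak*. This gave 14 of the 10376 features measured, which represented 9 of the 10 genes. *by* had 3 cDNA clones, *mys*, *mew* and *rhea* had 2 each, and *if*, *Ilk*, *stck*, *Vinc* and *Fak* had 1 each. No feature with a single gene matched *parvin*, which is not analysed here. *mys*, *if*, *mew* and *Vinc* lie on the X chromosome, *rhea* and *Ilk* on 3L, *by* and *stck* on 3R and *Fak* on 2R.

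Integrins are receptors of an alpha and a beta subunit that join the extracellular matrix outside the cell to actin filaments inside it. In the fly embryo they hold muscles to tendon cells and epithelial layers to each other, and they act in cell migration and axon guidance. Talin binds the beta subunit and actin, vinculin strengthens that link, and integrin-linked kinase, PINCH and parvin form a complex at the same sites. Tensin joins these sites late and is named in flies after the wing blisters of its mutants, *blistery*.

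Each of 7 spotted cDNA arrays carried RNA of *lolaORC4* homozygous embryos and RNA of control embryos collected alongside, in different dyes. The mutants were *w1118* embryos with the *lolaORC4* allele on both second chromosomes, one of them carrying *sca-GAL4* and the other UAS-tau-eGFP. The controls had the same *w1118* background, driver and GFP transgene, but no *lolaORC4* allele. Whole embryos aged 10 to 12 hours were used, about 300 for each RNA sample, after sorting by GFP in the central nervous system. The published methods say, for the null allele, that the same *lola* allele went into both recombinants. For *lolaORC4* this is not stated there, and modifiers on its chromosomes cannot be told apart from the mutation. The labels give Cy3 as the dye of the mutant RNA for 3 arrays, namely replicates 1, 4 and 6, and Cy5 for the 4 others, while the published methods count the dyes the other way round.

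The values were log2 ratios between mutant and control RNA, normalized by the authors. Such ratios hold no expression level, so levels of different genes could not be compared and the cell types of the embryos could not be checked. All pairs of arrays correlated positively, with r from 0.06 to 0.72 over all features, so the ratios run the same way on every array, but neither labels nor methods settle which way. They were multiplied by -1, which makes them run with the fold changes listed for the *lola* null. In the published results for the null, a positive fold change means more RNA in the mutant. Whether positive means that here is not settled, and if the deposited values are mutant over control every sign below reverses. Each feature's mean was tested against 0 with *limma*, with Benjamini-Hochberg adjustment over all 10376 features. In whole embryos, fewer cells of a type and less RNA per cell cannot be told apart.

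Of the 14 features, 1 changed at an adjusted p under 0.05 in *limma*, the *by* clone SD01953. Over all features 7.64% changed, 4.46% with a negative and 3.18% with a positive mean, and SD01953 was negative. With the mutant in Cy3 alone the balance of signs over all features turned, and 794 of 1125 called features were positive against 330 of 793 with all arrays, while SD01953 stayed negative. SD01953 had a mean log2 ratio of -1.12 ± 0.55 (SD, n = 7 arrays), a 2.18-fold difference, and it was the 40th largest of all features in size. The 13 other features had means between -0.11 and 0.25, 8 positive and 5 negative, and none passed (adjusted p from 0.25 to 0.93 in *limma*). At an unadjusted p under 0.05 the count was again 1 of 14, beside 21.9% of all features. The median of the 13 was 0.03, against 0.01 for all features. Only SD01953 had the same sign on all 7 arrays, as did 11.6% of all features.

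**Figure D1:**
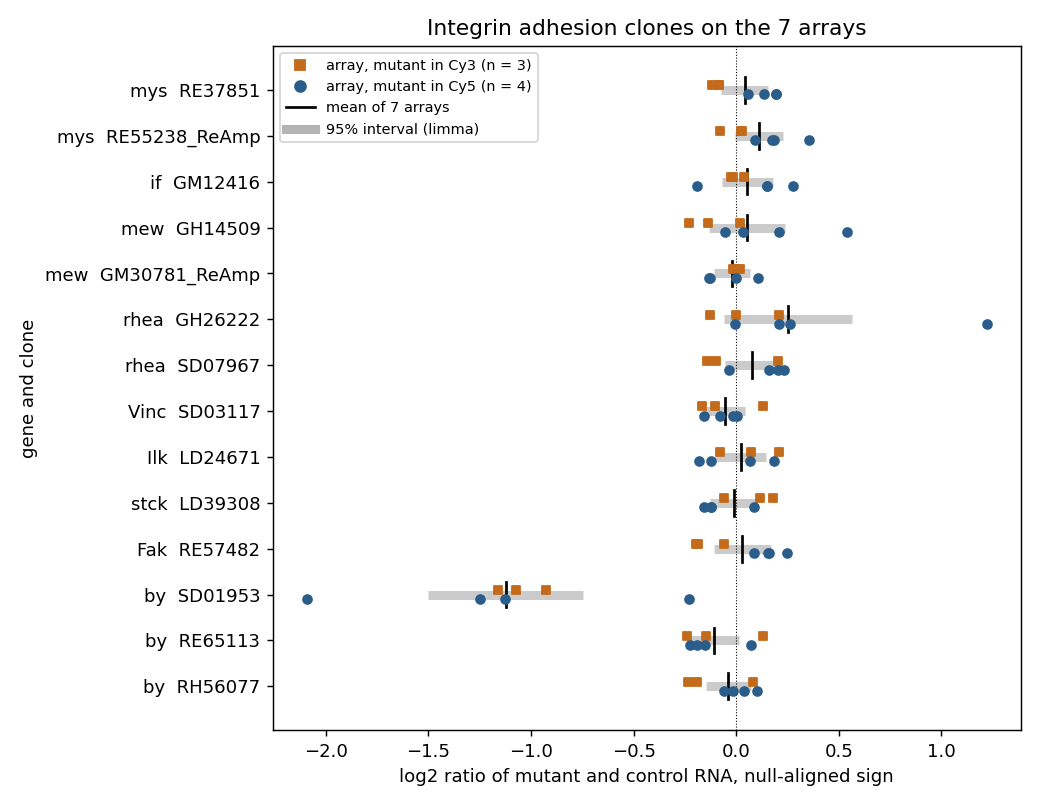
Log2 ratio of each of the 14 clones (x axis, null-aligned sign) on each array, with squares where the mutant RNA was in Cy3 (3 arrays) and circles where it was in Cy5 (4 arrays). The black line is the mean of 7 arrays and the grey bar its 95% interval from *limma*. Only the interval of *by* SD01953, from -1.50 to -0.74, leaves out 0, and *rhea* GH26222 has a single array at 1.22.

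Each of the 13 other features was measured on the same 7 arrays, and their standard errors differed with their spread. For 12 of them the 95% intervals from *limma* lay within -0.23 and 0.24 on the log2 scale, so for each of these clones a difference of more than 1.18-fold in either direction was outside the interval. The exception was the *rhea* clone GH26222, whose interval ran from -0.06 to 0.57, or up to 1.48-fold. The SD between arrays ranged from 0.08 to 0.45 over the 13 features, with a median of 0.15, and the median over all features was 0.14. An adjusted p above the threshold does not show that a gene was unaffected.

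The 3 clones of *by* gave different results. SD01953 was at -0.93, -0.23, -1.13, -1.16, -1.25, -1.07 and -2.09 on replicates 1 to 7 (mean -1.12, standard error 0.17, adjusted p = 0.0038 from *limma*). Replicate 2 was nearest to 0 and replicate 7 farthest from it, and the arrays of both dye orientations overlapped. RE65113 lay between -0.24 and 0.13, with a median of -0.15 and a mean of -0.11 (standard error 0.05, adjusted p = 0.29 from *limma*). RH56077 lay between -0.23 and 0.10, with a median of -0.01 and a mean of -0.04 (standard error 0.05, adjusted p = 0.72 from *limma*). On replicate 2 SD01953 lay within the ranges of both other clones, and on the other 6 arrays it was below every value of theirs.

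On each array SD01953 was below the mean of the 2 other *by* clones. The difference was -1.03, -0.15, -1.22, -0.99, -1.11, -0.84 and -2.02 on replicates 1 to 7, a mean of -1.05 ± 0.55 (SD, n = 7). An exact two-sided sign-flip permutation test gave p = 0.016, the smallest value that 7 arrays allow, and a 95.3% interval from -1.56 to -0.57. Adjusted over the 7 differences between clones that were computed, p was 0.055 in the same exact test, so the difference does not pass that correction. It was also known before the test was run, and the p is not independent evidence. RE65113 and RH56077 differed from each other by -0.07 ± 0.11 (SD, n = 7, exact permutation p = 0.20, 95.3% interval from -0.18 to 0.04).

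SD01953 was then set beside SD03976, a clone assigned to *KrT95D*, which the published clone list marks as a retrotransposon. Retrotransposons are mobile elements that copy themselves through RNA, and the family listed for SD03976 is one of those with long terminal repeats. SD03976 was at -1.01, -0.29, -1.24, -1.13, -1.32, -1.02 and -2.34 on replicates 1 to 7 (mean -1.19, standard error 0.19, adjusted p = 0.0048 from *limma*). The difference of SD01953 from it was 0.08, 0.06, 0.11, -0.03, 0.08, -0.06 and 0.25 on the same arrays. Both clones were thus nearest to 0 on replicate 2 and farthest on replicate 7. The mean difference was 0.07 ± 0.10 (SD, n = 7, exact two-sided permutation p = 0.11, 95.3% interval from -0.03 to 0.16). SD01953 was nearer to 0 on 5 of 7 arrays.

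The other clones of *KrT95D* stood apart from SD03976 as the other clones of *by* did from SD01953. AT03104 lay between -0.22 and 0.28 (mean 0.04, adjusted p = 0.77 from *limma*) and GM03043 between -0.20 and 0.64 (mean 0.27, adjusted p = 0.085 from *limma*). SD03976 was below their mean on every array, with differences from -2.44 to -0.75 (mean -1.35 ± 0.58, SD, n = 7, exact two-sided permutation p = 0.016, 0.055 adjusted over the 7 differences). In both genes, then, 1 clone was negative on all arrays while 2 clones did not pass.

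The list holds only features that changed in the *lola* null, so a clone unchanged there could not be marked. SD01953 did change in the null, and it is not among the clones marked as the retrotransposon of SD03976. The list marks 6 other clones as that retrotransposon, and they were further from 0 than SD01953 or SD03976. Their mean was -2.99, -1.63, -3.12, -2.81, -3.38, -2.79 and -5.47 on replicates 1 to 7, and single clones averaged from -4.04 to -1.81. This group too was nearest to 0 on replicate 2 and farthest on replicate 7. The log2 ratio of SD01953 was 0.14 of the mean of these 6 clones on replicate 2, and elsewhere it was 0.31 to 0.41 of it. For SD03976 these fractions were 0.18 on replicate 2 and 0.34 to 0.43 elsewhere.

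Across the 7 arrays, 4 correlations with SD01953 were computed. With SD03976 Pearson's r was 0.99 and Spearman's rho 0.96 (exact permutation p = 0.0012 and 0.0028, 0.0048 and 0.011 after Benjamini-Hochberg adjustment), and without replicates 2 and 7, the arrays farthest from the median, r was 0.85. With the mean of the 6 other retrotransposon clones r was 0.97 and rho 0.82 (exact permutation p = 0.0099 and 0.034, adjusted 0.020 and 0.068), and without replicates 2 and 7 r was 0.46, so this relation rests on those arrays. With the mean of the 2 other *by* clones r was 0.08 and rho 0.14 (exact permutation p = 0.88 and 0.78), and r was -0.08 without replicates 1 and 3. With the mean of the 2 other *KrT95D* clones r was 0.35 and rho 0.14 (exact permutation p = 0.43 and 0.78), and r was 0.26 without replicates 1 and 2. The clones share arrays and normalization, and each dye orientation holds too few arrays for a correlation of its own. SD03976 was chosen with earlier results of these data known, and the retrotransposon clones are ones that changed in the *lola* null. The p-values of these correlations are therefore not independent evidence.

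**Figure D2:**
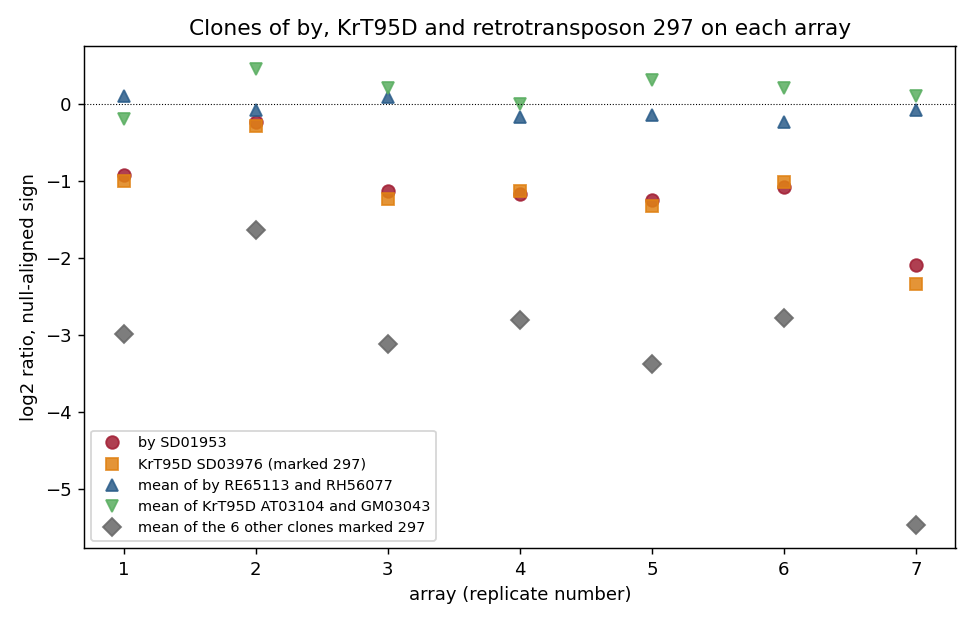
Log2 ratio (y axis, null-aligned sign) on each array (x axis, replicate number) for *by* SD01953, *KrT95D* SD03976, and the means of the other clones of *by*, of *KrT95D* and of the retrotransposon that SD03976 is marked as, whose family name is a number given in the key. SD01953 and SD03976 lie within 0.25 of each other on every array, between the retrotransposon clones below and the other clones of their own genes above.

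The features most like SD01953 were found by the root mean square difference of the log2 ratios over the 7 arrays. SD03976 was the nearest of all features, at 0.114. The next were SD03267 of *Unc-115b* at 0.175 (mean -1.01, r = 0.99 over 7 arrays) and SD27140, which has no single gene name and is marked as the retrotransposon *3S18*, at 0.195 (mean -1.12). The other 5 of the 8 nearest were SD01985 and GH14469, without a gene name, AT15667 of *CG15506*, GH26796 of the cytochrome P450 gene *Cyp9f2* and RE22242 of *serp*, at 0.278 to 0.294. The *by* clones RE65113 and RH56077 were at 1.13 and 1.21, with 1246 and 3422 other features nearer. Few features have ratios of this size, which by itself limits which features can be near. Of the 8 nearest, 4 carry the prefix SD, which names clones of a library from Schneider cultured cells, as do 7.17% of all features. This count was made after the values were seen, and the share of SD clones among features with ratios of this size was not computed. The published qRT-PCR, made in the *lola* null, found no significant change of *by* or *KrT95D*, although SD01953 and SD03976 were negative on the null arrays. Other genes that had changed on the null arrays were not significant in that qRT-PCR either. The paper proposes that an array clone and its qRT-PCR target may detect different splice variants. It adds that the qRT-PCR samples came from fewer embryos, which may have made them more variable. No qRT-PCR was published there for *lolaORC4*. The sequence of SD01953 was not used here, and whether it measured *by* RNA was not tested here.

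The receptor subunits come next. *mys* encodes beta PS, the main beta subunit of the fly. Its clone RE37851 lay between -0.12 and 0.19 with a median of 0.06, and its mean was 0.04 (standard error 0.05, adjusted p = 0.70 from *limma*). RE55238 lay between -0.08 and 0.36 with a median of 0.09, and its mean was 0.11 (standard error 0.05, adjusted p = 0.25 from *limma*). The clones of *mys* differed by 0.07 ± 0.08 (SD, n = 7, exact permutation p = 0.11, 95.3% interval from -0.02 to 0.14). *if* encodes alpha PS2, the partner of beta PS in muscle. Its clone GM12416 lay between -0.19 and 0.28 around a mean of 0.06 (standard error 0.05, adjusted p = 0.62 from *limma*).

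*mew* encodes alpha PS1, the partner of beta PS in the epidermis and its tendon cells. GH14509 lay between -0.23 and 0.54, with a median of 0.02 and a mean of 0.05 (standard error 0.08, adjusted p = 0.77 from *limma*). GM30781 was the steadiest of the members, with values between -0.13 and 0.10 and a mean of -0.02 (SD 0.08, n = 7, adjusted p = 0.82 from *limma*). The difference of the *mew* clones was 0.43 on replicate 2 and 0.34 on replicate 5, and it ran from -0.24 to 0.16 elsewhere (mean 0.07 ± 0.25, SD, n = 7, exact permutation p = 0.45).

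*rhea* encodes talin. GH26222 was at 0.21, 1.22, 0.21, -0.13, 0.26, 0.00 and -0.01 on replicates 1 to 7, a mean of 0.25 (standard error 0.14, adjusted p = 0.34 from *limma*). Replicate 2 stood alone, and the other arrays averaged 0.09 ± 0.16 (SD, n = 6). SD07967 lay between -0.14 and 0.23 with a mean of 0.08 (standard error 0.06, adjusted p = 0.50 from *limma*), and on replicate 2 it was at 0.16. The *rhea* clones differed by 1.06 on replicate 2 and by -0.02 to 0.10 on the other 6 arrays (exact permutation p = 0.078 over the 7 arrays). Apart from that array their difference had an SD of 0.04 (n = 6), the smallest of the 4 pairs drawn in the plot of clone pairs. Of the 14 members GH26222 alone had an array set apart by Dixon's criterion for 7 values, as did 6.34% of all features.

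**Figure D3:**
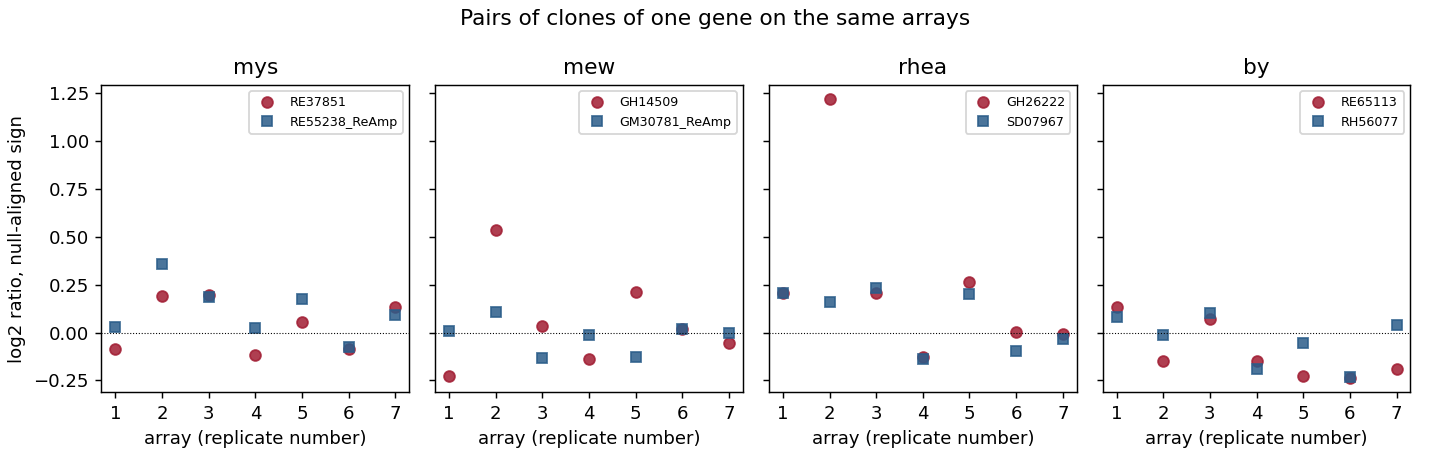
Log2 ratio (y axis, null-aligned sign) of both clones of *mys*, *mew* and *rhea*, and of the *by* clones other than SD01953, on each array (x axis, replicate number). The *rhea* clones lie together except on replicate 2, where GH26222 is at 1.22 and SD07967 at 0.16.

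Among the proteins that link or signal from integrins, the clone of *Vinc*, which encodes vinculin, lay between -0.16 and 0.13 with a median of -0.08 and a mean of -0.06 (standard error 0.04, adjusted p = 0.51 from *limma*). *Ilk*, which encodes integrin-linked kinase, lay between -0.18 and 0.21 with a median of 0.07 and a mean of 0.02 (standard error 0.05, adjusted p = 0.87 from *limma*). *stck*, which encodes PINCH, lay between -0.16 and 0.18 with a median of -0.06 and a mean of -0.01 (standard error 0.05, adjusted p = 0.93 from *limma*). The clones of *Ilk* and *stck* had the same sign on 6 of the 7 arrays, both positive on replicates 1, 4 and 7 and both negative on replicates 2, 5 and 6. This is not particular to that pair, since *Fak* and the *mys* clone RE37851 had the same sign on every array. The signs of *Fak* and RE37851 followed the dye orientation, as given below. *Ilk* and *stck* each had both signs within each orientation. The share over other pairs of features was not computed. *Fak*, which encodes focal adhesion kinase, lay between -0.20 and 0.25 with a median of 0.09 and a mean of 0.03 (standard error 0.06, adjusted p = 0.84 from *limma*).

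For some members the ratios moved with the dye orientation. *Fak* was negative on all 3 arrays that had mutant RNA in Cy3 (-0.20 to -0.06) and positive on all 4 that had it in Cy5 (0.09 to 0.25). *mys* RE37851 was likewise negative on the former (-0.12 to -0.08) and positive on the latter (0.06 to 0.19). *mys* RE55238 was at -0.08 to 0.03 and at 0.09 to 0.36. In a *limma* fit with a dye coefficient, the Cy5 arrays exceeded the Cy3 arrays by 0.31 for *Fak* (standard error 0.07, adjusted p = 0.022) and by 0.24 for *mys* RE37851 (standard error 0.06, adjusted p = 0.039), while *mys* RE55238 at 0.21 did not pass (adjusted p = 0.12). These were 2 of the 14 members, and 10.6% of all features passed the same test. The orientations did not overlap for these 3 of the 14, as for 26.4% of all features, and all 3 were higher with the mutant in Cy5, as were 10.2% of all features. For SD01953 the means were -1.05 ± 0.12 with the mutant in Cy3 (SD, n = 3) and -1.17 ± 0.76 in Cy5 (SD, n = 4). Fitted on its own, the first orientation passed (adjusted p = 0.0023 from *limma*) and the second did not (adjusted p = 0.055 from *limma*).

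**Figure D4:**
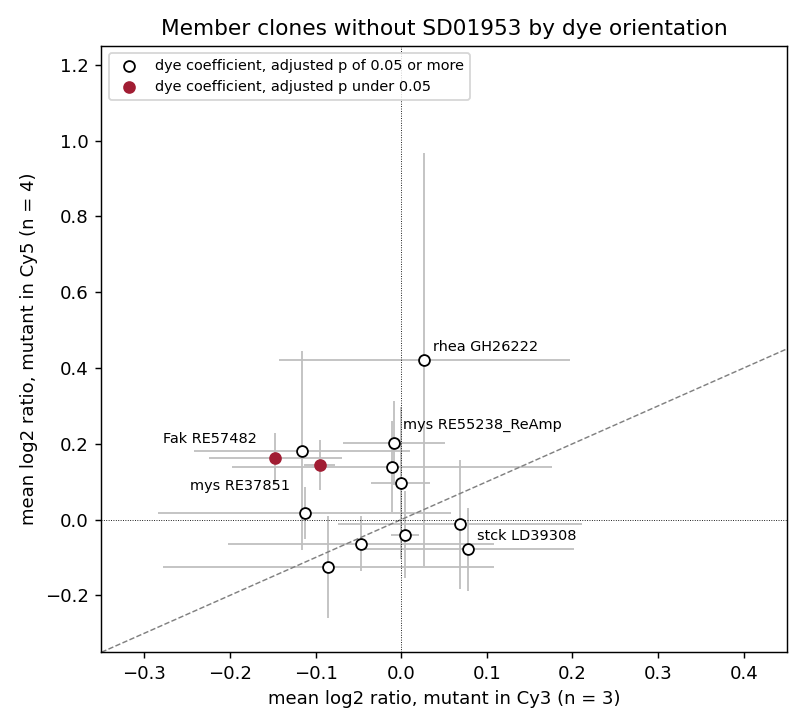
Mean log2 ratio of the 13 member clones other than SD01953 by dye of the mutant RNA, Cy3 (x axis, 3 arrays) and Cy5 (y axis, 4 arrays), with bars of 1 SD and a dashed line of equality. The filled points, *Fak* and *mys* RE37851, lie left of 0 and above it and had a dye coefficient at an adjusted p under 0.05 in *limma*.

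Other genes of integrin adhesion were taken as 3 lists of 45 genes, of which 30 had 42 features with a single gene. No feature of these lists changed at an adjusted p under 0.05 in *limma*, and 7 had an unadjusted p under 0.05, beside 7.64% and 21.9% of all features. The means ran from -0.34 to 0.40 with a median of 0.05. The integrin subunit gene *scb* was at -0.01 (SD 0.12, n = 7). Among 11 genes of ligands and basement membrane, the 14 features had a median of 0.04, and their values ran from -0.11 for *Tig*, a ligand of the PS2 integrin, to 0.14 for GM04010, a clone of the collagen IV gene *Col4a1*. The other *Col4a1* clone HL01428 was at 0.0013, and GM04010 itself was at 0.41 with the mutant in Cy3 and at -0.07 in Cy5. Among 18 genes of adaptors and regulators, the 27 features had a median of 0.05. The *Pax* clone, for paxillin, was at -0.05.

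The adaptor gene *wech*, whose protein connects talin to integrin-linked kinase, also stood apart on replicate 2. Its clones LD02463 and LD39167 were at 1.55 and 1.61 on replicate 2 and positive on all 7 arrays. Elsewhere LD02463 lay from 0.12 to 0.30 and LD39167 from 0.13 to 0.26. With all arrays neither passed (means 0.38 and 0.40, adjusted p = 0.20 for each from *limma*). Without replicate 2 both did, at 0.18 (adjusted p = 0.024 from *limma*) and 0.19 (adjusted p = 0.016 from *limma*). The *cher* clone SD05640, for the actin cross-linker filamin, was at -0.34 (adjusted p = 0.058 from *limma*), and it passed without replicate 2 at -0.41 (adjusted p = 0.023 from *limma*) and without replicate 1 at -0.39 (adjusted p = 0.045 from *limma*). The *Zasp66* clone GM09210, for a PDZ protein of muscle, was at 0.43 to 0.57 with the mutant in Cy3 and at -0.36 to -0.32 in Cy5. The other *Zasp66* clone, GH19182, had no such split, with -0.19 to 0.94 and -0.28 to 0.26 (dye adjusted p = 0.60 from *limma*). The clones named from these lists were chosen after their values were seen.

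Markers of cells that carry integrin sites were read beside the members. Of 21 features of 10 muscle genes, 1 changed (adjusted p under 0.05, *limma*), beside 7.64% of all features. It was the clone RH25277 of *sls*, a titin-like muscle protein, at 2.02, while the other 3 *sls* clones were at 0.11 to 0.27 and did not pass. The median of the list was -0.06, and its lowest values were those of the myosin light chain genes, -0.34 and -0.38 for the *Mlc1* clones and -0.37 for the *Mlc2* clone, each negative on 6 of 7 arrays and none past the threshold (adjusted p = 0.40, 0.33 and 0.27 from *limma*). The mean of the muscle features was 0.58 on replicate 1 and from -0.33 to 0.24 on the other arrays. Replicate 1 was the highest array for 4 of the 14 members and replicate 2 for 5. The shares over all features were not computed. Of the 5 tendon genes only *tx*, for a transcription factor, had a feature, at 0.03 (adjusted p above 0.05 in *limma*). Of 6 hemocyte features 2 changed, both of the peroxidasin gene *Pxn*, at 0.39 and 0.21. Of 2 neuron features, that of the synaptic gene *nSyb* changed at -0.39 and that of *futsch*, for a microtubule-associated protein, was at 0.07 and did not pass. None of 6 glia features changed. Of 2 epidermis features, that of the chitin deacetylase gene *serp* changed at -1.19 and that of the cuticle gene *knk* was at 0.03 and did not pass. The part of these cell types in the members' values was not tested.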

How the data were processed

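The labels and published methods describe 7 two-colour arrays of the *Drosophila* Gene Collection. The authors read spots with GenePix and *limma* (version not given in the sources used here), left the background uncorrected, used print-tip loess within each array and scale normalization between arrays, and deposited log2 ratios, 1 per array for each feature. All 10376 features were kept, 149 control spots included, and no value was missing. The platform annotation gave 8598 features 1 gene and 517 several, which are not named; 8454 symbols were matched to current ones through a RefSeq gene table. The published list for the *lola* null served only to set the sign (it ran against all 7 arrays as deposited) and for retrotransposon names, of which *297* marks 7 clones, SD03976 among them. That list holds only features that changed in the null. Means were fitted with *limma* 3.58.1 in R 4.3.3 (lmFit, eBayes), with Benjamini-Hochberg adjustment at 0.05. Differences between clones and correlations were tested by exact permutation over arrays in Python (scipy 1.17.1). The interval of a difference came from the 128 sign patterns. The procedure was tested on simulated data.

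The members and lists were chosen with earlier results of these data known. Named features follow a rule: every member clone, every *KrT95D* clone, the clones marked as SD03976 is, as a group, the 8 features nearest to SD01953, and up to 4 changed features of each list with the largest values. Exceptions are stated. Outliers were sought among 7 arrays at Dixon's critical value of 0.568. Alternatives were a dye coefficient, median centring, robust empirical Bayes, array weights, quantile normalization, omitting control spots, 1 dye orientation or each array in turn, averaging the features of a gene, and an adjusted p of 0.01. The sample pairs were collected independently. The number of arrays limits the precision. No sequences were used here.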

Additional observations from a re-analysis of the deposited data

Results flagged for a closer look

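For 3 clones of the members and the related adhesion lists, 1 array lay far from the others. Each group of 7 arrays was examined for a highest or lowest value whose gap to the next, as a share of the whole range, was above Dixon's 95% critical value. Chance flags about 1 in 20 such groups of normal values, and 6.34% of all features met this. Of the 14 members, 1 did: the talin clone *rhea* GH26222, at 1.22 on replicate 2, with a gap of 0.71 of its range. Both *wech* clones met it on the same array, LD02463 at 1.55 with a gap of 0.87 and LD39167 at 1.61 with a gap of 0.92. The second *rhea* clone SD07967, at 0.16 on replicate 2, did not. Among the clones marked as the same retrotransposon as SD03976, SD15221, SD08734 and GH26082 met it too. There the array apart was replicate 7, at -6.51, -6.92 and -4.47, with gaps of 0.57, 0.58 and 0.64. Replicate 2 had the lowest mean correlation with the other arrays, 0.30 against 0.36 to 0.56 for the rest, and the lowest array weight in *limma*, 0.62. It was the highest array for 5 of the 14 members and the lowest for 2, and the shares over all features were not computed. The part of this array's quality in these values was not tested.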

How the results depend on the processing

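SD01953 stayed negative under all alternatives run, and its call was lost with the 4 arrays with the mutant in Cy5 alone (-1.17, adjusted p = 0.055 from *limma*), where 0 members were called. Leaving out each array gave -1.27 to -0.96 and 1 member called each time. Its difference from the other *by* clones was -1.20 to -0.89 without each array, -0.96 with the mutant in Cy3 alone (exact permutation p = 0.25) and -1.12 in Cy5 alone (exact permutation p = 0.125), where 3 and 4 arrays allow no smaller p. Its difference from SD03976 was 0.04 to 0.09 without each array, -0.0027 with the mutant in Cy3 alone and 0.12 in Cy5 alone. It passed under no alternative, but the last 2 settings allow no p below 0.25 and 0.125 in the exact permutation test. None of the 13 other members passed under any alternative (lowest adjusted p 0.081 in *limma*), and 10 of them had the opposite sign under at least 1. Averaged over its 3 clones, *by* had a log2 ratio of -0.42 with a standard error of 0.07 (adjusted p = 0.0062 from *limma*), a mean that SD01953 carries, since the 2 other clones averaged -0.07 and neither passed.

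Features of the related adhesion lists called numbered 1 under quantile normalization, 1 with array weights, 4 with the mutant in Cy3 alone, 2 in Cy5 alone, and 0 to 3 without each array. The single call under the first 2 settings was *cher* SD05640. Over all features the count of 793 became 1234 with a dye coefficient and 313 at an adjusted p under 0.01, and 441 to 810 without each array. The arrays whose omission lowered it most were replicates 5 (441), 3 (446) and 7 (494). No paired analysis was possible because each array is already the ratio of 1 matched pair and all arrays form 1 group. The cause of these changes was not tested. Robust empirical Bayes has no counterpart for the exact tests and was not run for the differences between clones.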
